A study of Mus musculus with 35 samples.

Results

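The genes described here encode the nuclear-encoded subunits of the mitochondrial respiratory chain and of the ATP synthase in mouse embryonic stem cells (ESCs). They were chosen by name: rows of the expression table beginning with Ndufa, Ndufb, Ndufc, Ndufs, Ndufv, Uqcr, Cox4i, Cox5, Cox6, Cox7, Cox8 or Atp5, without the Ndufaf assembly factors, Cox7b2 and names holding -ps. The rule gave 80 of 26127 rows. By their known roles, 36 encode complex I subunits, 8 complex III, 19 complex IV and 15 the ATP synthase. The remaining 2, Atp5s and Atp5sl, carry the ATP synthase name but are not counted among its subunits. The cytochrome c1 gene Cyc1 and the genes of complex II fall outside the name rule.

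Total RNA was sequenced after ribosomal RNA depletion from ESCs in which the maintenance DNA methyltransferase gene Dnmt1 was deleted (KO) and from wild-type controls (WT), at days 0, 1, 3, 6, 9, 11, 17 and 25. There were 17 libraries of each genotype, 3 per genotype at day 1 and 2 at every other day, and 1 library of a Dicer KO line. The labels give the background strain E14 for the ESCs. The study's methods instead describe Dnmt1 loxP/loxP ESCs of strain C57BL/6, in which tamoxifen (4OHT) induces Cre, grown in serum with LIF, with or without feeder cells. By those methods the Dicer KO was made in the Dnmt1 loxP/loxP cells from a colony grown out of a single cell. Whether the WT libraries carry the loxP alleles or received tamoxifen is not given in the sources used here.

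Electrons enter the respiratory chain at complex I (NADH dehydrogenase) or complex II (succinate dehydrogenase), pass through complex III to cytochrome c and reach oxygen at complex IV (cytochrome c oxidase). The protons pumped on the way drive the ATP synthase. Complexes I, III and IV and the ATP synthase combine subunits encoded in the nucleus with subunits encoded by mitochondrial DNA, and several complex IV subunits exist as isoforms of heart and muscle, lung or testis beside the common form. ESCs make much of their ATP by glycolysis but keep a working respiratory chain.

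Promoters of such genes are known for sites of the factors NRF1, ETS and YY1 and for CCAAT boxes. RefSeq promoter entries (GRCm38.p6) were matched for 66 of the 80 genes, and the 250 bases before each listed start were searched on both strands. The NRF1 core GCGCATGC was found in 7 of 66 genes (10.6%), against 2.56% of all 27025 genes with an entry. The ETS letters CCGGAAG were found in 11 (16.7% against 7.83%) and the YY1 letters ATGGCGG in 5 (7.58% against 2.58%). CCAAT was found in 28 (42.4% against 37.5%). The 27025 genes were not limited to expressed ones. The 7 genes with the NRF1 core were Atp5g2, Atp5k, Atp5l, Cox6a1, Ndufa6, Ndufa8 and Ndufa11. The 150 bases before the start are shown for genes with large rises at day 25 (Cox7a1, Cox7a2l, Ndufb3), for Atp5d, the exception at that day, and for Atp5g2, as an example of the NRF1 core. They lie at chr7:30184021-30184170 (forward strand), chr17:83514334-83514483 (reverse), chr1:58586247-58586396 (forward), chr10:80142125-80142274 (forward, the first of 2 listed starts) and chr15:102671048-102671197 (reverse). Each is written 5′ to 3′ on the strand of its gene, with CCAAT boxes (read as ATTGG on the other strand) and the NRF1 core in capitals. In Atp5g2 the core matches on both strands, and its matches overlap.
Cox7a1: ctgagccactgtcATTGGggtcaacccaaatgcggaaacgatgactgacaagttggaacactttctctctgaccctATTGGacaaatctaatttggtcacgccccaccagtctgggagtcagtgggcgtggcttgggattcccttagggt
Cox7a2l: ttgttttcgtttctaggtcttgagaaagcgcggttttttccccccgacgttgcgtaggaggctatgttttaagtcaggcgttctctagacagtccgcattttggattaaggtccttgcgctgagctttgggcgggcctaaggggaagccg
Ndufb3: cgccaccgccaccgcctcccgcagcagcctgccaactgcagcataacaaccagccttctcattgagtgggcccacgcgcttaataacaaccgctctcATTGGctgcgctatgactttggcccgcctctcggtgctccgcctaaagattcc
Atp5d: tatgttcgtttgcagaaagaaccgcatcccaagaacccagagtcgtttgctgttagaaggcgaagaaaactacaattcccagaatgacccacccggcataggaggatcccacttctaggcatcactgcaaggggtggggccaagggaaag
Atp5g2: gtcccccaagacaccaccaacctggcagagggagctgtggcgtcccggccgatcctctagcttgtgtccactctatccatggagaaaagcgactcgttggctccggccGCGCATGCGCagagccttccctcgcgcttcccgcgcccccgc
None of the 4 motifs was found in the 150 bases of Cox7a2l and Atp5d.

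Dnmt1 checked the labels. At day 0 it stood at 18.3 and 18.4 RPKM (reads per kilobase of exon, scaled to library size) in WT and at 18.7 and 18.5 RPKM in the libraries labelled KO. From day 1 on it was lower in KO, with 2.58 to 8.13 RPKM, at every day except day 6. There the libraries labelled WT held 3.22 and 3.40 RPKM and those labelled KO held 20.2 and 20.4 RPKM, against the labels. Day 6 is therefore given as labelled and kept out of the mean over days. The value of 8.13 RPKM was that of the third day 1 library. In WT at day 25 Dnmt1 reached 34.8 and 31.6 RPKM, above the 14.1 to 19.5 RPKM of the other 5 high-share WT libraries (defined in the next paragraph), and the Dicer KO library held 34.8 RPKM.

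The libraries fell into 2 sets by the share of reads in gene exons. It was 20.7% to 22.4% in 20 libraries and 44.7% to 49.9% in the other 15, which were those of days 11, 17 and 25, the third day 1 pair and the Dicer KO library. They are called low-share and high-share here. The exon reads, recovered from the step that 1 read makes in RPKM, numbered 5.20 to 17.996 megareads per library. RPKM levels of the 80 genes were not compared between the sets. The 10 ESC markers summed to 667 to 1940 RPKM in the 34 WT and Dnmt1 KO libraries with none at 0. The 10 fibroblast markers summed to 5.88 to 30.5 RPKM with 0 to 4 at 0. Without Fn1, the other 9 summed to 6.18 to 17.5 RPKM in the low-share libraries and 0.905 to 2.78 RPKM in these high-share ones. At day 3 this sum was 7.74 and 6.72 RPKM in WT and 12.5 and 12.4 RPKM in KO. At day 9 it was 9.95 and 8.78 against 17.5 and 15.9 RPKM. Its part in the differences of these days was not tested.

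Of the 80 genes, 77 had RPKM above 1 in at least 2 of the 34 libraries and were tested. The other 3 are the heart and muscle isoforms Cox6a2 and Cox8b and the testis isoform Cox8c, which had at most 1, 2 and 3 reads in any library and 3, 9 and 6 reads over all 35. Expression of these 3 was not detectable beyond a floor of 3 reads per library. Cox4i2 exceeded 1 RPKM only in the 2 WT libraries of day 11, so it was tested through that group alone, and counts that set this group against another are also given without it.

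In the 7 high-share WT libraries the complex IV genes were the most abundant per length, with a median over 16 genes of 93.6 RPKM, against 63.5 RPKM for complex III, 53.2 RPKM for the ATP synthase and 24.99 RPKM for complex I. These medians are a description of overlapping ranges. Cox4i1, the common isoform of subunit 4 of complex IV, led with a lowest value of 138, a median of 278 and a highest value of 308 RPKM. Atp5a1 and Atp5b, the catalytic-head subunits alpha and beta of the ATP synthase, followed with medians of 227 and 193 RPKM, and the ranges of the 3 genes overlapped. At the low end stood Cox4i2 (median 0.471 RPKM), the lung isoform of subunit 4, and Ndufa4l2 (0.390 RPKM), the hypoxia-linked paralog of Ndufa4.

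Differences between genotypes are given as KO minus WT on log2(RPKM + 0.1), after each library was centred on its median over the 11615 genes tested, and a gene was called at a Benjamini-Hochberg adjusted p under 0.05 in limma. A fold on this scale understates the change of genes of low level. At day 0 none of the 77 genes was called, as was 0% of all genes in either direction, and none passed at an unadjusted p under 0.05. At day 1, 0 genes were called against 0.0775% of all genes higher and 0.0344% lower, with 2 higher and 3 lower at an unadjusted p under 0.05. At day 3, 0 were called against 5.72% higher and 5.73% lower, with 1 higher and 6 lower unadjusted. The median differences of the 77 genes at these days were 0.01, -0.06 and -0.09, beside 0.01, -0.02 and -0.03 for all genes. With the spread taken from the day 3 libraries alone, 3 genes were higher and 14 lower at day 3, where 9.88% and 12.7% of all genes were.

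**Figure D1:**
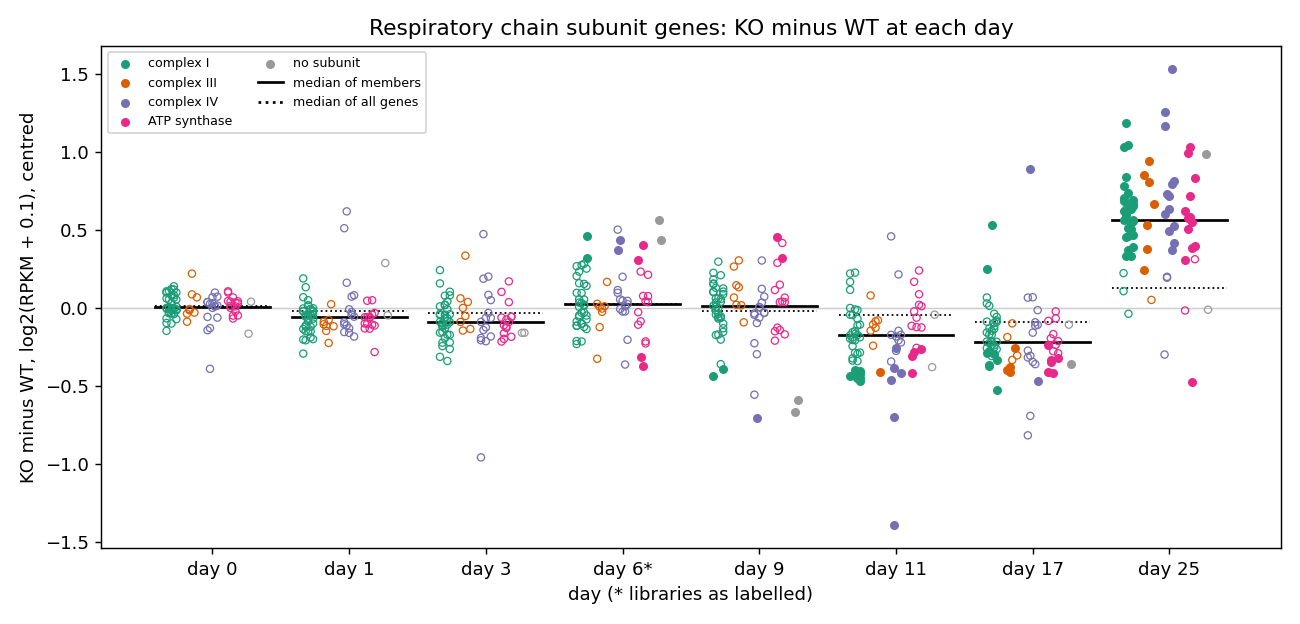
KO minus WT of the 77 genes tested at each day, on centred log2(RPKM + 0.1), colored by complex. Filled points were called in limma and open points were not, the solid bar is the median of the 77 genes and the dotted bar that of all 11615 genes. At day 25 the median is 0.57, against values between -0.22 and 0.03 at the other days.

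At day 9 the differences stayed small and went both ways, with 2 genes higher and 5 lower (all genes: 13.4% and 13.6%) and a median of 0.01. The 2 that rose encode the membrane-ring subunit c of the ATP synthase, Atp5g1 by 0.46 (SE 0.11, adjusted p = 0.00372 in limma) and Atp5g3 by 0.32. The 5 that fell were Cox6b2, Atp5s, Atp5sl, Ndufs6 and Ndufa13. Atp5sl, which is named for its likeness to Atp5s, held 2.74 and 2.81 RPKM in WT and 2.17 and 1.60 RPKM in KO, without overlap. Ndufs6, a complex I accessory subunit, held 13.6 and 13.3 RPKM in WT and 9.74 and 10.7 RPKM in KO, without overlap. Taken as labelled, day 6 had 8 higher and 2 lower genes (all genes: 13.4% and 13.3%). Several genes had the opposite sign there from day 9: Atp5sl differed by 0.44 at day 6 and by -0.59 at day 9, Atp5s by 0.56 and -0.67, and Atp5g1 by -0.32 and 0.46. Leaving out any library of day 6 left 1 or 2 genes higher and 0 or 1 lower. At day 9, 0 genes were higher without WT replicate 2 and 1 without either KO replicate, and 1 was lower without KO replicate 1 and 3 without any other library of that day.

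At day 11, 18 genes were lower and none was higher in KO, where 20.4% of all genes were lower and 14.8% higher, and none was higher at an unadjusted p under 0.05. The share lower, 23.4% of the 77 genes, was near that of all genes, and 17 of 76 were lower without Cox4i2. The median was -0.17 (all genes -0.05). The calls hung on single libraries: 58 genes were lower without KO replicate 1, 3 were lower and 7 higher without KO replicate 2, and 1 was lower without WT replicate 1. KO replicate 2 had a median of 4.26 over the 77 genes in centred log2 units, beside 4.72 in KO replicate 1 and 4.74 and 4.60 in WT. Without centring, 4 genes were higher and 10 lower.

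At day 17, 19 genes (24.7%) were lower and 3 (3.90%) higher in KO, beside 25.6% and 17.5% of all genes, with a median of -0.22 (all genes -0.09). The share lower was near that of all genes. Lower genes came from complex I (7 of 36), complex III (4 of 8) and the ATP synthase (6 of 15), with 1 of 16 from complex IV. Atp5sl fell too. Uqcrfs1, the Rieske iron-sulfur subunit of complex III, fell by 0.40 on the log2 scale and Ndufb11, a complex I accessory subunit, by 0.53. The 3 that rose were Ndufa11, Ndufb7 and Cox6b2. Without centring none was lower and 4 were higher, and the median of all genes moved from -0.09 to 0.09. The lower count was 2 without WT replicate 1, 7 and 11 without KO replicates 1 and 2, and 35 without WT replicate 2, where 1 gene stayed higher.

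At day 25 the picture was different: 66 of the 77 genes were higher in KO and 1 was lower, where 39.3% of all genes were higher and 25.9% lower. The median difference was 0.57, beside 0.13 for all genes. The count higher was 66 without centring and 57 to 64 when any library of day 25 was left out. In bulk samples such as these, fewer cells of a type and less RNA per cell cannot be told apart.

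Genes of complexes I, III and IV and of the ATP synthase rose at day 25. In complex I, the entry point for electrons from NADH, 33 of 36 genes rose (median 0.56). Among them were all 7 core genes, which form the arm that takes electrons from NADH to ubiquinone, from 0.34 for Ndufs7 to 0.78 for Ndufs1 (median 0.47), and 26 of 29 accessory genes (median 0.60). Ndufs6 (0.11), Ndufb2 (0.22) and the acyl carrier protein gene Ndufab1 (-0.04) were not called. In complex III 7 of 8 rose (median 0.60), from Uqcrfs1 (0.25) to Uqcrb (0.94), and the core protein gene Uqcrc1 was not called (0.05). In complex IV 13 of 16 rose (median 0.62), and the 3 not called were the isoforms Cox4i2, Cox6b2 and Ndufa4l2. In the ATP synthase 12 of 15 rose (median 0.56), among them the subunit c genes Atp5g1 (0.99), Atp5g2 (1.03) and Atp5g3 (0.39), while Atp5e (0.31) and Atp5j (-0.02) were not called. Atp5s rose by 0.99 and Atp5sl was not called (-0.01). Of the genes tested, all 7 with the NRF1 core in their promoter window were higher, and so were 49 of the 58 whose window lacks it. Of all 77 genes 85.7% were higher. The share among all genes with the core was not computed, and a link to the core was not tested.

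The largest rise was that of Cox7a1 (chromosome 7, 30969190 to 30971047, NCBIM37), the heart and muscle isoform of subunit 7a of complex IV. It held 4.48 and 3.44 RPKM in WT and 11.999 and 11.12 RPKM in KO at day 25, a difference of 1.54 (SE 0.21, adjusted p = 2.23e-06 in limma), or 2.90-fold. The pairs did not overlap. At days 11 and 17 it held 10.5, 8.92, 10.02 and 7.92 RPKM in WT and 14.3, 10.3, 6.39 and 9.71 RPKM in KO, so that over these 3 days the WT libraries of day 25 were the low ones. Over the 20 low-share libraries it ranged from 3.81 to 8.27 RPKM.

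Cox7a2l (chromosome 17, 83901259 to 83913673, NCBIM37) encodes a protein that joins complexes III and IV into supercomplexes. It held 26.1 and 31.2 RPKM in WT and 66.9 and 69.4 RPKM in KO at day 25, a difference of 1.26 (SE 0.13, adjusted p = 8.08e-08 in limma) or 2.39-fold. At days 11 and 17 it stood at 56.7, 54.6, 43.5 and 35.1 RPKM in WT and 54.0, 35.5, 35.4 and 35.8 RPKM in KO. For this gene the KO libraries of day 25 were above, and the WT libraries below, all libraries of days 11 and 17.

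Ndufb3 (chromosome 1, 58643228 to 58652808, NCBIM37), a membrane-arm accessory subunit of complex I, held 17.15 and 17.9 RPKM in WT and 38.7 and 41.1 RPKM in KO at day 25, a difference of 1.19 (SE 0.16, adjusted p = 1.95e-06 in limma). It held 37.2, 31.0, 34.5 and 22.8 RPKM in WT and 36.8, 23.4, 29.6 and 27.1 RPKM in KO at days 11 and 17. Cox4i1 held 138 and 155 RPKM in WT and 342 and 317 RPKM in KO at day 25, a difference of 1.17 (SE 0.12, adjusted p = 6.66e-08 in limma). At days 11 and 17 it held 283, 278, 308 and 238 RPKM in WT and 316, 229, 322 and 323 RPKM in KO. Over these 3 days both genes were lowest in the WT libraries of day 25.

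Atp5d (chromosome 10, 79601377 to 79608563, NCBIM37), the delta subunit of the central stalk of the ATP synthase, was the single gene that fell. It held 21.2 and 20.1 RPKM in WT and 15.3 and 14.3 RPKM in KO, a difference of -0.47 (SE 0.07, adjusted p = 4.07e-06 in limma), with no overlap. At days 11 and 17 it held 18.1, 17.9, 16.8 and 16.998 RPKM in WT and 19.8, 21.8, 17.7 and 19.1 RPKM in KO, where the difference was not called. Without KO replicate 2 of day 25, 2 genes were lower.

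**Figure D2:**
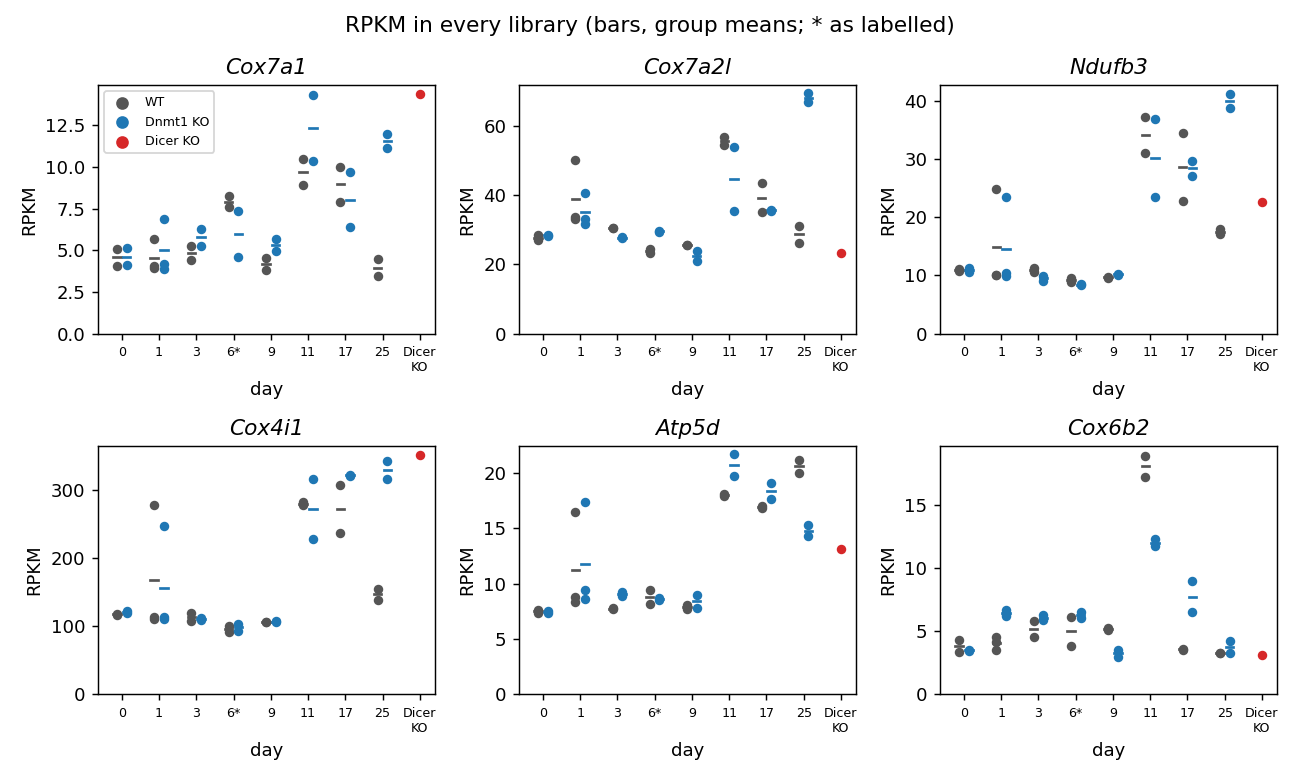
RPKM in every library by day for 6 genes, WT in gray, Dnmt1 KO in blue and Dicer KO in red, with bars at the group means; days 11, 17 and 25 and 1 library per genotype at day 1 are high-share libraries. Cox7a1, Cox7a2l, Ndufb3 and Cox4i1 are higher in KO than in WT at day 25, Atp5d is lower, and, among days 11, 17 and 25, Cox6b2 is highest at day 11.

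The libraries of days 11, 17 and 25 belong to the same high-share set, so the level of the 77 genes could be followed within each genotype. This comparison was chosen after the values were seen. The median over the 77 genes, in centred log2 units, was 4.09 and 4.09 in the WT libraries of day 25, below the 4.60 to 4.87 of the WT libraries of days 11 and 17. In KO it was 4.67 and 4.70 at day 25, within the 4.26 to 4.72 of days 11 and 17. In WT, 72 of the 77 genes were lower at day 25 than at days 11 and 17 and none was higher, with a median difference of -0.72, where 41.7% of all genes were lower and 28.3% higher (median -0.12). None was higher at an unadjusted p under 0.05. Without Cox4i2 the count was 71 of 76. Among these 71 were the other 15 complex IV genes tested, all 8 of complex III, 33 of 36 of complex I and 13 of 15 of the ATP synthase. Ndufa8, Ndufa10, Ndufb10, Atp5j and Atp5d were not called. In KO, 13 genes were higher and 10 lower (all genes: 26.5% and 21.3%), with a median of 0.07. Cox7a2l (0.81), Ndufa10 (0.66) and Ndufs1 (0.60) rose most in KO. Ndufa4l2 (-1.87), which had 0 and 7 reads in KO at day 25, and Cox6b2 (-1.30) fell most. Omission of any library left 65 to 73 genes lower in WT. The KO counts were less stable, with 37 genes higher without KO replicate 1 of day 11, 18 lower without its replicate 2, 8 higher without KO replicate 2 of day 25 and 5 lower without its replicate 1.

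**Figure D3:**
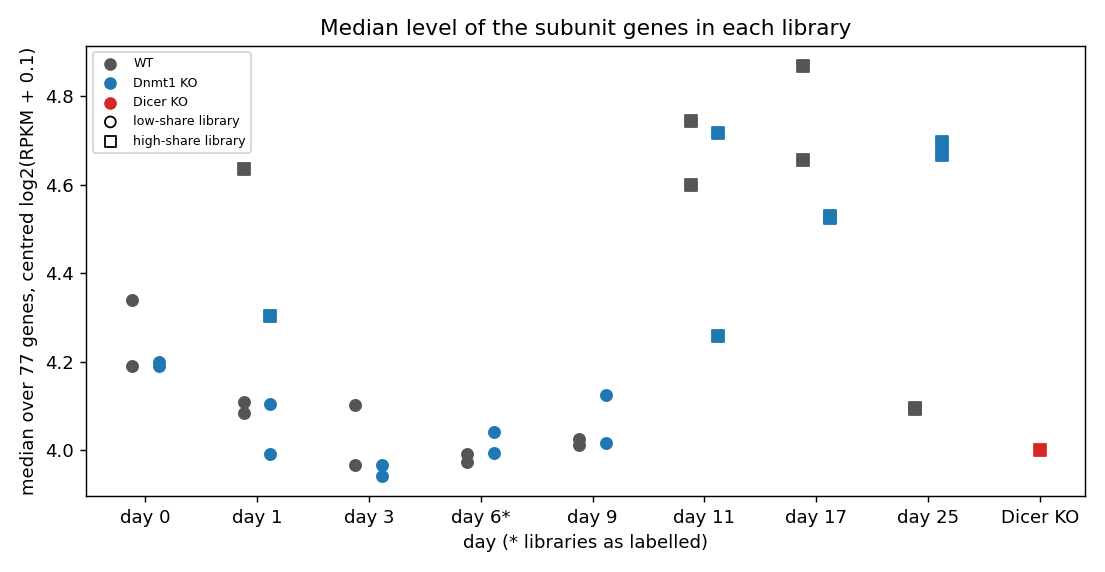
Median of the 77 genes in each library, in centred log2(RPKM + 0.1), for WT (gray), Dnmt1 KO (blue) and Dicer KO (red); circles are low-share and squares high-share libraries. Both WT libraries of day 25 lie at 4.09, while WT at days 11 and 17 lies at 4.60 to 4.87 and KO at day 25 at 4.67 and 4.70.

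Other measures moved with the WT libraries of day 25, and their part in the result was not tested. The share of reads in gene exons was 44.7% and 45.2% in WT and 49.4% to 49.9% in KO at day 25, and 45.5% to 49.3% in the other WT and KO libraries of days 11 and 17. The 10 fibroblast markers summed to 25.24 and 28.7 RPKM in WT (1 to 3 at 0) and to 6.82 and 8.65 RPKM in KO (1 or 2 at 0) at day 25, and to 5.88 to 24.2 RPKM in the 8 libraries of days 11 and 17. Nearly all of this was Fn1, with 27.4 and 24.2 RPKM in WT and 7.36 and 5.87 RPKM in KO at day 25. The other 9 markers summed to 1.29 and 0.989 RPKM in WT and to 1.29 and 0.954 RPKM in KO, and Dcn, which encodes decorin, was at 0 in both WT libraries. The 10 ESC markers summed to 1082 and 1108 RPKM in WT and 1349 and 1360 RPKM in KO, with none at 0. This sum hides markers that differed in opposite directions. Nanog held 30.7 and 32.7 RPKM in WT and 154.7 and 144.3 RPKM in KO at day 25. Sall4 (38.9 and 35.7 against 13.995 and 11.3 RPKM) and Utf1 (39.8 and 36.1 against 18.8 and 19.6 RPKM) were lower in KO. The 9 differentiation markers in the table summed to 7.83 and 8.21 RPKM in WT and 5.48 and 5.77 RPKM in KO. These markers, too, differed in opposite directions. Nes held 3.76 and 3.22 RPKM in WT and 1.74 and 1.64 RPKM in KO, and Cdx2, Gata6 and T were also lower in KO. Sox17 held 0.317 and 0.514 RPKM in WT and 0.831 and 0.766 RPKM in KO. Foxa2, Pax6 and Gata4 were also higher in KO, and Gata3 overlapped. Exon length moved with the day 25 difference over all genes: with all genes cut into 4 bins of equal size by exon length, its median was 0.37 in the shortest bin and -0.13 in the longest. The 77 genes are short, with a median exon length of 1231 bases against 3365 for all genes, and 55 fell in the shortest bin. There their median was 0.58, beside 0.36 for the other genes of that bin.

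The difference between genotypes at day 25 was then set against that at day 17. It was more positive at day 25 for 68 of the 77 genes and more negative for 2, Cox6b2 and Atp5d, where 35.6% and 21.5% of all genes passed the same test. The median of this change was 0.76, against 0.15 for all genes, and 0.57 against -0.04 without centring. All 8 complex III genes passed. The count more positive was 55 to 70 when each library of these days was left out in turn, and 1 gene was more negative without KO replicate 1 of day 17 or without KO replicate 2 of day 25.

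Over the mean of days 3, 9, 11, 17 and 25, 14 genes (18.2%) were higher and 4 (5.19%) lower in KO, with a median of 0.01. Both shares were below those of all genes (26.2% and 31.6%). The count of higher genes was 31 without KO replicate 2 of day 11, that of lower genes was 22 without KO replicate 1 of day 11 and 7 without WT replicate 2 of day 17, and without centring 33 were higher and 2 lower. Cox7a1 (0.38), Ndufa11 (0.35), Ndufa8 (0.25) and Atp5g1 (0.22) had the largest means. Such a mean can rest on 1 day: Cox7a1 differed by 1.54 at day 25.

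Ndufa11 and Ndufb7, accessory subunits of complex I, rose at both days 17 and 25. Ndufa11 held 10.6 and 8.40 RPKM in WT and 15.4 and 15.7 RPKM in KO at day 17 (0.53, SE 0.13, adjusted p = 0.00198 in limma), and 7.98 and 8.81 RPKM against 14.9 and 13.2 RPKM at day 25 (0.74). At day 11 it stood at 10.4 and 10.1 RPKM in WT and 14.9 and 11.3 RPKM in KO and was not called, and the pairs overlapped after centring. The differences of Ndufb7 were 0.25 at day 17 and 0.69 at day 25.

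Ndufa8, a complex I accessory subunit of the intermembrane space side, held 19.3 and 22.3 RPKM in WT and 31.7 and 32.3 RPKM in KO at day 25 (0.62, SE 0.14), and 23.6 and 20.6 RPKM in WT and 25.15 and 26.1 RPKM in KO at day 17 (0.03). At day 11 it held 19.3 and 19.5 RPKM in WT and 30.9 and 19.4 RPKM in KO. The KO libraries of day 25 were the highest of these in RPKM, with KO replicate 1 of day 11 close to them. WT at day 25 differed from WT at days 11 and 17 by -0.12, which was not called. Atp5g1 went up and down: 4.34 and 3.85 RPKM in WT and 5.68 and 5.97 RPKM in KO at day 9, 9.45 and 8.93 against 12.4 and 10.1 RPKM at day 11, 18.9 and 14.8 against 14.5 and 15.4 RPKM at day 17 (-0.34, lower) and 9.097 and 9.40 against 18.5 and 18.4 RPKM at day 25.

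The 4 genes lower over these days were Ndufs6 (-0.27), Atp5sl (-0.23), Atp5a1 (-0.17) and Atp5j (-0.14). Ndufs6 held 26.3 and 24.0 RPKM in WT and 21.4 and 18.9 RPKM in KO at day 11 (-0.43, SE 0.11), 26.4 and 24.9 against 23.7 and 25.03 RPKM at day 17, and 18.7 and 21.1 against 23.5 and 19.4 RPKM at day 25. The pairs overlapped in RPKM at days 17 and 25, and after centring at day 25 alone. Atp5a1 held 234 and 230 RPKM in WT and 233 and 177 RPKM in KO at day 11, 271 and 227 against 204 and 220 RPKM at day 17, and 163 and 168 against 208 and 200 RPKM at day 25. Its difference was called lower at days 11 (-0.31) and 17 (-0.41) and higher at day 25 (0.31). Atp5j, coupling factor 6 of the stalk, held 14.97 and 12.6 against 11.7 and 10.5 RPKM at day 11, 12.2 and 12.4 against 12.2 and 11.5 RPKM at day 17, and 11.9 and 13.3 against 12.2 and 12.7 RPKM at day 25. Atp5sl ranged from 3.30 to 4.35 RPKM in WT and from 3.37 to 3.87 RPKM in KO over days 11, 17 and 25. Atp5a1 and Atp5j lost their call without centring.

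Beside Cox7a1, 3 tissue isoforms were tested, and none of them was called at day 25. Cox6b2, the testis isoform of subunit 6b, held 18.9 and 17.3 RPKM in WT and 12.3 and 11.7 RPKM in KO at day 11 (-0.70, SE 0.16, adjusted p = 0.00184 in limma). At day 17 it held 3.62 and 3.53 RPKM in WT and 8.97 and 6.53 RPKM in KO (0.89, adjusted p = 0.00012 in limma), while WT held 3.26 and 3.28 and KO 4.27 and 3.32 RPKM at day 25 (0.20, not called). Day 11 was thus high in both genotypes, and the sign of the difference turned between days 11 and 17. At day 9 it held 5.11 and 5.23 RPKM in WT and 2.95 and 3.53 RPKM in KO (-0.70). In the low-share libraries of day 1 it held 4.19 and 4.57 RPKM in WT and 6.72 and 6.36 RPKM in KO. In the high-share pair of that day it held 3.52 RPKM in WT and 6.23 RPKM in KO. Within each set KO was above WT, in RPKM and after centring, and the centred values overlapped only between the sets. The day 1 difference was not called (0.62, adjusted p = 0.0544 in limma).

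Cox4i2 held 1.44 and 1.02 RPKM in WT and 0.848 and 0.209 RPKM in KO at day 11, 0.471 and 0.468 against 0.615 and 0.125 RPKM at day 17, and 0.465 and 0.374 against 0.384 and 0.621 RPKM at day 25. It rested on a median of 13 reads per library. Its difference at day 11 (-1.39) was called, but the 2 WT libraries of that day are the ones that let it pass the filter, so the call is no support for a difference. Ndufa4l2 held 1.35 and 0.379 against 1.69 and 0.756 RPKM at day 11, 0.422 and 0.559 against 0.370 and 0.204 RPKM at day 17, and 0.139 and 0.115 against 0 and 0.238 RPKM at day 25, with no call at any day. At day 25 these were 4 and 3 reads in WT and 0 and 7 reads in KO. In the low-share libraries its highest values, 3.57 to 5.88 RPKM, were those of day 6.

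The other genes of oxidative metabolism were set beside these at day 25, as counts and medians. Of the 13 protein genes of mitochondrial DNA, 9 were higher and none lower (median 0.67), led by mt-Nd3 (1.52). Of the 4 complex II genes 2 were higher, led by Sdhc (0.96), and 1 was lower, Sdha (-1.28). The assembly factors had 11 of 25 higher and 1 lower (median 0.22), the cytochromes and electron carriers 2 of 5 higher (median 0.17), the TCA cycle 4 of 13 higher and 5 lower (0.13) and glycolysis 4 of 17 higher and 5 lower (-0.07). The 11 tested regulators of respiration had 4 higher and 4 lower (-0.03). Other short, abundant genes moved alongside: 75 of 77 cytosolic ribosomal protein genes were higher and 1 was lower (median 0.65), and of 76 mitochondrial ribosomal protein genes 50 were higher and 5 lower (0.38), beside the 39.3% and 25.9% of all genes. In WT at day 25 against days 11 and 17, 76 of the 77 cytosolic ribosomal genes and 11 of the 13 genes of mitochondrial DNA were lower. Of all genes, 41.7% were lower and 28.3% higher in that comparison.

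**Figure D4:**
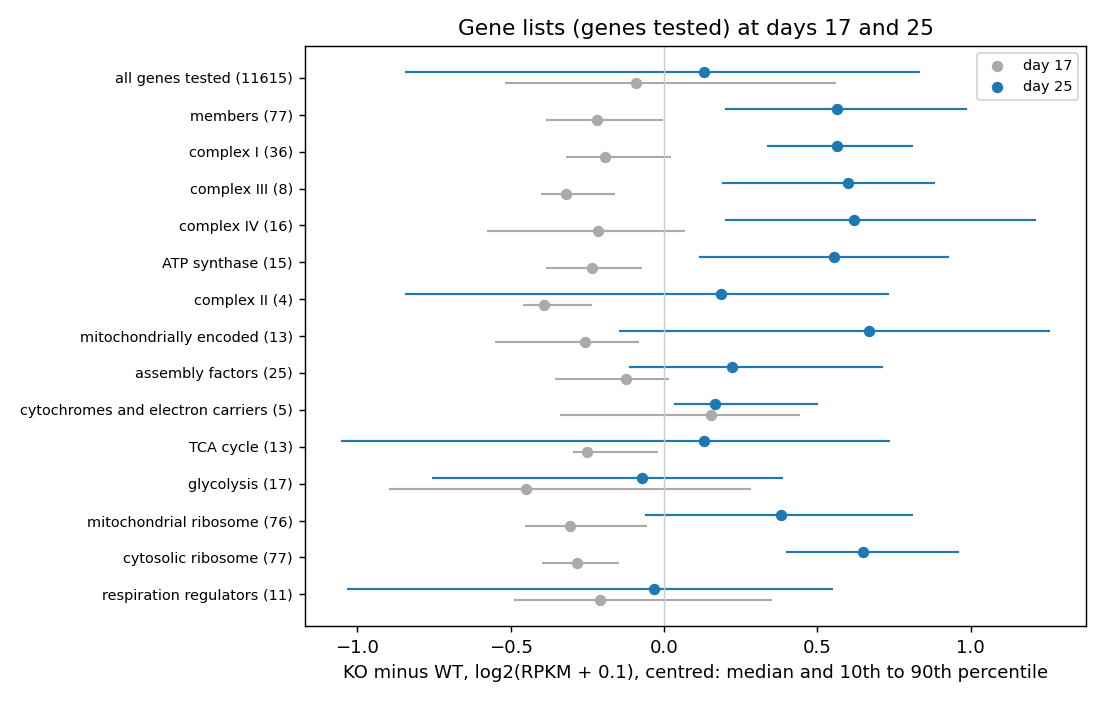
KO minus WT on centred log2(RPKM + 0.1) at days 17 (gray) and 25 (blue) for each gene list, with the number of genes tested; points are medians and lines span the 10th to 90th percentile of genes. Complexes I, III and IV, the ATP synthase, the genes of mitochondrial DNA and both ribosomal lists have medians of 0.38 to 0.67 at day 25, against 0.19 for complex II and 0.13 for all genes.

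The Dicer KO library has no replicate and was not tested. Its median over the 77 genes was 4.001 in centred log2 units, against 4.09 to 4.87 in the 7 high-share WT libraries. Below all 7 lay 32 of the 77 genes, where 37.1% of all genes did, and above all 7 lay Cox7a1 (14.4 RPKM) and Ndufb7 (4.98 RPKM), where 23.2% of all genes did. Ndufa4l2 was listed at 0, and Uqcrq, a small subunit of complex III, stood at 8.07 RPKM, 1.89 below the WT mean on the centred log2 scale. The fibroblast markers summed to 83.5 RPKM in this library with none at 0, above the 5.88 to 28.7 RPKM of the other 14 high-share libraries. Fn1 made up 48.5 RPKM of it and the other 9 markers 35.03 RPKM, and their part in these values was not tested.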

How the data were processed

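Trimming was done with Trim Galore 0.3.5 and alignment to NCBIM37 with TopHat2 2.0.11, per the submitters' processing notes; the methods state that reads of low mapping quality were dropped and genes were quantitated in SeqMonk. The deposited values are RPKM, on a linear scale, whereas the methods name log2 RPM. RPKM times exon length fell on whole reads for 99.5% to 99.7% of values under 20 reads (within 0.1), with exon lengths from GENCODE vM1 for 99.9% of rows. Groups came from the labels.

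Fits were made in R 4.3.3 by limma 3.58.1 (eBayes with a mean-variance trend) on log2(RPKM + 0.1), centred on library medians over the genes that exceeded 1 RPKM in 2 or more of 34 libraries, with group means and 1 term for the third day 1 pair (17 residual degrees of freedom), and the code was tested on simulated data. Benjamini-Hochberg adjustment ran over all 11615 genes. Means over days left out day 6. The series describes biological replicates; nothing says whether they were separate cultures, so p-values measure the spread between libraries. Reads of near-identical pseudogenes could not be followed in RPKM.

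Members and gene lists were chosen with earlier results of these data known, and the ribosomal patterns were adjusted after the table was read. Values per library are given for the 4 largest called rises and falls over days and at day 25 and for tissue isoforms above 1 RPKM. Alternatives were a pseudocount of 1, no filter, no centring, no term for the third day 1 pair, only the groups compared, a replicate block, each library left out, and day 6 included.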

Additional observations from a re-analysis of the deposited data

Results flagged for a closer look

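The genotype difference changed between day 17 and day 25, by a test of the difference itself in limma. It went upward for 68 of the 77 genes and downward for 2 (all genes: 35.6% and 21.5%). Among the genes described by library, the change from day 17 to day 25 was 1.90 for Cox7a1, 1.57 for Cox7a2l, 1.35 for Ndufb3, 1.34 for Atp5g1, 1.103 for Cox4i1, 0.72 for Atp5a1, 0.59 for Ndufa8, 0.37 for Ndufs6 and 0.35 for Atp5sl on the log2 scale. It was -0.69 for Cox6b2 and -0.41 for Atp5d. Against days 11 and 17 of the same genotype, 72 of the 77 genes were lower in WT at day 25 (all genes: 41.7%). The count was 71 of 76 without Cox4i2. In KO 13 were higher and 10 lower (all genes: 26.5% and 21.3%). This comparison within each genotype was chosen after the values were seen.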

How the results depend on the processing

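The count of genes higher in KO at day 25 (66) and the count lower in WT at day 25 than at days 11 and 17 (72) stayed within 1.5 times of themselves under every alternative run. Days 0 and 1 had 0 calls throughout. Counts at the other days moved. Without centring, 1 gene was higher at day 3, 3 higher and 5 lower at day 6, 5 higher at day 9, 4 higher and 10 lower at day 11, 0 lower at day 17, 33 higher and 2 lower over days 3, 9, 11, 17 and 25, and 1 higher in WT at day 25 than before. Without the term for the third day 1 pair, 1 was higher and 0 lower at day 6, 0 higher and 2 lower at day 9, 5 lower at day 11, 1 higher and 5 lower at day 17, 6 higher over days, 1 more negative at day 25 than at day 17, and 7 higher in KO at day 25 than before. With only the groups compared, day 3 had 3 higher and 14 lower genes (all genes 9.88% and 12.7%), day 6 had 18 and 8 (19.9% and 16.5%), and day 9 had 12 and 11 (18.2% and 20.6%); 0 were lower at day 11, 4 lower at day 17, and 5 higher and 4 lower in KO at day 25 than before. With a pseudocount of 1, 5 were higher and 1 lower at day 6, and 1 was higher in WT at day 25 than before. With day 6 as labelled, 8 were higher over days. The causes were not tested.

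With each library left out in turn, the ranges of higher, then lower, counts were 0 to 7 and 1 to 58 at day 11, 1 to 3 and 2 to 35 at day 17, 57 to 64 and 1 to 2 at day 25, 0 to 2 and 1 to 3 at day 9, 1 to 2 and 0 to 1 at day 6, and 11 to 31 and 4 to 22 over days. They were 8 to 37 and 5 to 18 for KO at day 25 against days 11 and 17, 65 to 73 lower for WT, and 55 to 70 more positive and 1 to 2 more negative for day 25 against day 17. Where this leaves 1 library in a group, that library is assumed to vary like the others.

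Deviations of same-numbered libraries from their group means correlated above 0.1 at 2 days, 1 and 11. With 2 libraries per group, both pairs of a day give the same value by construction. At day 1 (0.78 to 0.91) the group means pooled low-share and high-share libraries, so these values cannot tell pairing from library set. The other days gave -0.16 to 0.26, and the numbers were not taken as pairs. A replicate block gave 1 gene lower at day 6 and 5 higher in KO at day 25 than at days 11 and 17, and 66 higher at day 25. It moved no other count by over 1.5 times.

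Among the genes described by library, the difference over days lost its call without centring for Atp5a1 and Atp5j, without the term for the third day 1 pair for Ndufa8, Atp5g1 and Atp5j, and with day 6 included for Atp5a1.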
